A study of Saccharomyces cerevisiae with 8 samples.

Results

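The alcohol dehydrogenases Adh1 to Adh5, the zinc uptake transporters Zrt1 and Zrt2 and the zinc-sensing activator Zap1 of budding yeast were examined in RNA-Seq libraries of wild-type (WT) cells and of cells lacking the nuclear exosome subunit Rrp6 (*rrp6Δ*). The 8 transcripts were chosen by name from the open reading frame transcripts (ORF-Ts, annotated with their untranslated ends) of the deposited table, *ADH1* (YOL086C), *ADH2* (YMR303C), *ADH3* (YMR083W), *ADH4* (YGL256W), *ADH5* (YBR145W), *ZAP1* (YJL056C), *ZRT1* (YGL255W) and *ZRT2* (YLR130C). They are 8 of 5753 ORF-Ts and of 10054 annotated transcripts of all classes, all were counted, and none was removed for low counts. Noncoding transcripts on the same strand that reach into the 1000 bases before an ORF-T, and noncoding transcripts on the opposite strand across it, were taken as its context.

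Each strain gave 4 preparations of total RNA, numbered 1 to 4, from cells at an OD600 of 0.8, and each preparation became 1 library. According to the methods both strains are isogenic to BY4741, were grown in YPD, a rich glucose medium, and the *rrp6Δ* strain is the one of the yeast knockout collection, so a single deletion strain stands for the genotype. No other mutation and no treatment is named for these samples, and neither a zinc-poor medium nor a change of carbon source is part of the design. The replicates are described as biological, without a statement on separate colonies, so p-values measure the spread between these preparations. In these bulk samples, fewer cells that express a gene and less RNA per cell cannot be told apart.

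Alcohol dehydrogenases interconvert acetaldehyde and ethanol and most use zinc in the active site, which ties this enzyme family to the zinc supply of the cell. Adh1 makes ethanol during fermentation, Adh2 is repressed by glucose and oxidizes ethanol when glucose is gone, Adh3 is mitochondrial, Adh4 is a distant relative induced in zinc-poor medium, and Adh5 is a minor relative of Adh1. Zap1 activates its own gene, *ZRT1* (the high-affinity transporter), *ZRT2* (the low-affinity transporter) and *ADH4* when zinc is scarce, and in zinc-starved cells noncoding transcription across the promoters of *ADH1* and *ADH3* is known to repress both genes. Rrp6 is a 3′ exonuclease of the nuclear exosome that degrades many noncoding transcripts. The noncoding classes met here are CUTs (cryptic and unstable), SUTs (stable but unannotated), NUTs (Nrd1-unterminated), SRTs (restricted by the phosphatase Ssu72) and ASTs (antisense, with names that start with AS).

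Values of single libraries are given throughout in the order of replicates 1 to 4, WT first. *RRP6* itself had 1787, 1030, 754 and 660 reads in WT and 60, 31, 42 and 16 reads in *rrp6Δ*, which is -5.37 on the log2 scale. Total counts per library lay between 6904004 and 12666126. BY4741 is a *MATa* strain, and *STE2*, the pheromone receptor gene of *MATa* cells, had 983 to 2304 reads, while *STE3*, its counterpart in the other mating type, had 19 to 47. The 4 *MATa*-cell genes examined summed to 209 to 426 CPM in WT and 158 to 356 in *rrp6Δ*, and 1 of them, *MFA2*, was called lower, with *BAR1* as the second when the replicate number was a block (-0.85). *URA3*, which BY4741 lacks, had 49 to 103 reads per library in both strains, so the stated BY4741 background was not borne out at this gene. However, *RRP6* also kept 16 to 60 reads in the strain without it, so reads alone do not show that *URA3* is present. Where the *URA3* reads come from was not tested. *HIS3*, which is partly deleted in BY4741, had 29 to 83 reads. The libraries of *rrp6Δ* and WT with the same number varied together, so the ratio within each number is given beside several results.

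Sites like the Zap1 recognition sequence lay near the zinc genes. The palindrome ACCTTNAAGGT was searched, with at most 1 mismatch and on both strands, in the 1000 bases before the coding start of each gene of the RefSeq annotation (R64, whose ORF coordinates are those of the deposited sacCer3 table for 952 of 958 ASTs). It was found before 4 of the 8 genes and before 197 of 6027 genes (3.27%), and without mismatch before 13 of them (0.216%). The matches are printed with 9 bases on each side, in the direction of transcription and with the match in capitals, since they show which of the 8 genes carry such letters and how the sites of one gene differ.
*ZRT1* site at chrVII:20774-20784 (+): acatatttgACCTTGAAGGTcatggaaag
*ZRT1* site at chrVII:20659-20669 (+): accaaagatACCCTCAAGGTtctcatctg
*ZRT2* site at chrXII:404363-404373 (-): agggacataACCCTAAAGGTtatatgcga
*ZRT2* site at chrXII:404314-404324 (-): tttttcacaACCTTTAGGGTacattgccc
*ZAP1* site at chrX:333207-333217 (-): cagtcatctACCCTAAAGGTcatgatgaa
*ADH4* site at chrVII:14641-14651 (+): cttaaatgaACCTTCACGGTtaagcaacc
Among these 6 matches, 1 at *ZRT1* fits every letter and the other 5 differ from the palindrome at 1 position. The sites start 204 and 319 bases before the coding start of *ZRT1*, 262 and 311 bases before that of *ZRT2*, 144 bases before that of *ZAP1* and 518 bases before that of *ADH4*. The *ADH4* site lies inside the ORF-T, whose annotated leader is 693 bases long. No match of this kind was found before *ADH1*, *ADH2*, *ADH3* or *ADH5*, which says only that these letters are not in that window.

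The *ADH1* and *ADH2* coding sequences are identical at 88.8% of 1047 aligned bases and share an uninterrupted run of 189 bases, which matters because reads were 75 bases long. The run covers coding bases 193 to 381 of both genes and is printed in the coding direction with the first differing base on each side in capitals.
*ADH1* chrXV:160213-160403 (-): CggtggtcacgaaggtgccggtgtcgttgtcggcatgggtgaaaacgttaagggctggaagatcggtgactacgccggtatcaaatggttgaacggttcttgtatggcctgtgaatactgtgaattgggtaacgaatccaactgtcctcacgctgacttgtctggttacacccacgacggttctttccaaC
*ADH2* chrXIII:873956-874146 (-): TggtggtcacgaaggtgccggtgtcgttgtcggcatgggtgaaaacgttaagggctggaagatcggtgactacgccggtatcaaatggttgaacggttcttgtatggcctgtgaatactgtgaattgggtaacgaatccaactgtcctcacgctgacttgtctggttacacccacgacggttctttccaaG
Of 973 windows of 75 bases in either coding sequence, 115 (11.8%) are identical in the other and 190 (19.5%) differ from it at no more than 2 bases. The other pairs among *ADH1* to *ADH5* share no such window and differ by at least 9 bases in their most similar one. How reads from the shared run were assigned is not stated, so the *ADH1* and *ADH2* counts are uncertain to that extent. Counts of *ADH2* were between 0.473% and 6.73% of those of *ADH1* in the 8 libraries, below the share of identical windows in every one.

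Levels per kilobase of transcript spanned 3 orders of magnitude in WT. The values are read counts per 1e6 reads of the library (CPM), with library sizes scaled by edgeR's TMM method, divided by transcript length, and are given as mean ± SD over 4 libraries. *ADH1* led with 2519 ± 712 CPM per kilobase, followed by *ADH3* with 442 ± 75.8, *ZRT2* with 85.5 ± 19.1, *ADH2* with 61.0 ± 52.7, *ZRT1* with 47.0 ± 25.7, *ADH4* with 36.9 ± 8.03, *ADH5* with 29.1 ± 6.98 and *ZAP1* with 2.42 ± 1.12. *ADH1*, *ADH3* and *ZAP1* stood apart from their neighbours by more than these SDs, while the neighbours from *ZRT2* down to *ADH5* lay within each other's spread. In *rrp6Δ* the same measure was 1747 ± 328 for *ADH1*, 283 ± 84.8 for *ADH3*, 87.4 ± 9.05 for *ZRT2*, 39.8 ± 20.7 for *ZRT1*, 34.5 ± 5.66 for *ADH4*, 17.9 ± 6.61 for *ADH2*, 17.6 ± 4.22 for *ADH5* and 2.30 ± 0.223 for *ZAP1*. *ADH2* thus moved from the fourth to the sixth place, next to *ADH5*, and the other transcripts kept their order.

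In *rrp6Δ* cells, *ADH2*, *ADH3* and *ADH5* were down-regulated, and *ADH1*, *ADH4*, *ZAP1*, *ZRT1* and *ZRT2* did not pass the test. A transcript was called where edgeR's quasi-likelihood test gave p below 0.05, the false discovery rate (FDR, adjusted over all transcripts by Benjamini-Hochberg) did not exceed 0.1 and the strains differed 1.5-fold or more. By this rule 3 of 8 were lower and 0 were higher, where 14.3% of all ORF-Ts were called lower and 2.09% higher. At an unadjusted p under 0.05 the edgeR counts were the same, 3 lower and 0 higher, and DESeq2 also called 3 lower and 0 higher. The values cannot be read without the scaling, because the median log2 fold change of all ORF-Ts was -0.32, and it moved up by 0.31 when TMM factors were computed on ORF-Ts alone. That scaling turned 820 lower and 120 higher ORF-Ts into 149 lower (2.59%) and 226 higher, and among the 8 transcripts it left 1 lower, *ADH2*. Of the 8, 4 lay below the ORF-T median and 4 above it. For none of the 8 did the 4 *rrp6Δ* libraries all lie below the 4 WT libraries, where 13.8% of all ORF-Ts had that separation.

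**Figure D1:**
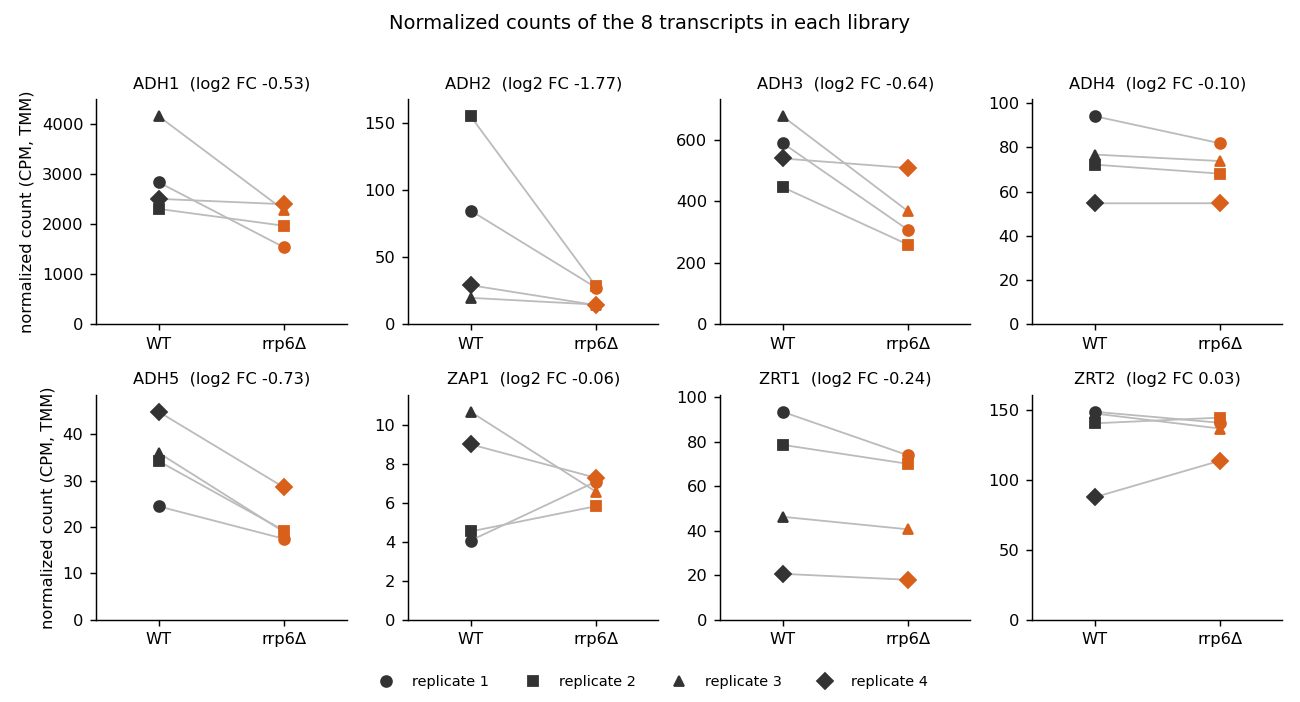
Normalized counts (CPM with TMM scaling, linear axes from 0) of the 8 ORF-Ts in the 4 WT (dark) and 4 *rrp6Δ* (orange) libraries, with grey lines joining libraries of the same number. *ADH2* was lower in *rrp6Δ* within all 4 numbers, with WT replicates 1 and 2 at 84.9 and 155 CPM, and the *ZRT1* lines run nearly flat between 93.6 and 18.0 CPM.

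*ADH2*, the glucose-repressed enzyme, changed most among the 8, and its values also spread most between WT libraries. It had 1003, 1236, 133 and 204 reads in WT and 449, 275, 194 and 149 in *rrp6Δ*. Scaled to CPM, these are 84.9, 155, 19.7 and 29.1 in WT and 27.4, 28.6, 14.6 and 14.3 in *rrp6Δ*. WT replicates 1 and 2 lay far above all other libraries, WT replicate 3 lay among the *rrp6Δ* libraries and WT replicate 4 just above them, and in both strains replicates 1 and 2 were above replicates 3 and 4. The highest WT library was 7.89 times the lowest, against 2.00 times in *rrp6Δ*. In all, *ADH2* had a log2 fold change of -1.77 (SE 0.54, FDR 0.0265, Benjamini-Hochberg, edgeR's quasi-likelihood test), 3.41-fold lower in *rrp6Δ*, or -1.45 relative to the ORF-T median. Within the numbers 1 to 4 the log2 ratio of *rrp6Δ* to WT was -1.63, -2.44, -0.43 and -1.03. A fit that took library number into account put the *ADH2* decrease lower, at -1.42 (SE 0.24, FDR 2.99e-04, same test and adjustment). That fit gave -1.11 once TMM factors came from ORF-Ts alone, a combination added after seeing the data. The size of the *ADH2* change thus depends on how number and scaling are treated. A two-sided exact permutation test of the CPM gave p = 0.114, where 4 libraries against 4 can reach 0.0286 at the lowest. The call held without any 1 library, but without WT replicate 2 the log2 fold change was -1.08, and it was lost when at least 10 counts were required of every transcript in each library (FDR 0.142, log2 fold change -1.54).

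Above the *ADH2* start, CUT791 rose. This CUT occupies chrXIII:874389-874549 on the strand of *ADH2*, and its last 7 bases are also the first of the ORF-T, so reads there can be counted on both. Its 161 bases are printed in the direction of transcription because the transcript ends where *ADH2* begins, with the letters GTAA and GTAG (bound by Nrd1 in RNA) and TCTT (bound by Nab3) in capitals.
CUT791 chrXIII:874389-874549 (-): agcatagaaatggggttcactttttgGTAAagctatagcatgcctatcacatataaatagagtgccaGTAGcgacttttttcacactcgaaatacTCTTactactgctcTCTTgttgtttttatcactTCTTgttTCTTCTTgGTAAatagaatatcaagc
On this strand, the only one searched, and with overlapping matches counted, the sequence holds GTAA 2 times, GTAG 1 time and TCTT 5 times, or 49.7 such tetramers per kilobase, and 1.37% of the 732 CUTs are as dense or denser (median 21.7). CUT791 had 10, 8, 5 and 3 reads in WT and 74, 78, 63 and 57 in *rrp6Δ*. The strains did not overlap, with no WT library above 10 reads and no *rrp6Δ* library below 57. How many of all CUTs showed such a gap was not computed, so this has no baseline. CUT791 thus had a log2 fold change of 2.87 (SE 0.37, FDR 2.68e-04 by edgeR's quasi-likelihood test, Benjamini-Hochberg, p = 0.0286 in the exact permutation test, the lowest it can give). Of all CUTs 81.3% were called higher, so a rise is what most CUTs showed here. Counts of CUT791 were 0.647% to 3.76% of those of *ADH2* in WT and 16.5% to 38.3% in *rrp6Δ*, without overlap. On the opposite strand AS_ADH2 had 52 to 118 reads in WT and 56 to 186 in *rrp6Δ*, with a log2 fold change of 0.17 (SE 0.28) that did not pass the test. Whether the CUT and the mRNA are linked was not tested.

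*ADH3* and *ADH5* were lower by smaller amounts. *ADH3*, the mitochondrial enzyme, had 590.1, 446, 678 and 539.8 CPM in WT and 308, 259.5, 368 and 509 CPM in *rrp6Δ*. Only *rrp6Δ* replicate 4 reached into the WT range, and it lay near WT replicate 4. The *ADH3* log2 fold change was -0.64 (SE 0.25, FDR 0.0703, Benjamini-Hochberg, edgeR's quasi-likelihood test), or -0.32 relative to the ORF-T median, with an exact permutation p of 0.0571. Its log2 ratios within numbers 1 to 4 were -0.94, -0.78, -0.88 and -0.09. The *ADH3* call rests on the scaling and on most single libraries, since the log2 fold change was -0.34 with ORF-T-based TMM factors and -0.30 without TMM, neither called. It was also lost without WT replicate 1 (-0.58), 3 (-0.54) or 4 (-0.59) and without *rrp6Δ* replicate 1 (-0.52), 2 (-0.51) or 3 (-0.65).

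*ADH5*, the minor relative, had 24.4, 34.2, 36.0 and 44.8 CPM in WT and 17.5, 19.2, 19.0 and 28.5 CPM in *rrp6Δ*. Here *rrp6Δ* replicate 4 again stood above its group and overlapped the lowest WT library, while the other 3 *rrp6Δ* libraries lay below all of WT. The log2 fold change of *ADH5* was -0.73 (SE 0.24, FDR 0.0365, Benjamini-Hochberg, edgeR's quasi-likelihood test), or -0.41 relative to the ORF-T median, with an exact permutation p of 0.0571. It was lower within every number, by log2 ratios of -0.49, -0.83, -0.92 and -0.65. This call was lost with ORF-T-based TMM factors (-0.42), without TMM (-0.38), and without WT replicate 4 (-0.51) or *rrp6Δ* replicate 1 (-0.60).

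Before *ADH3*, NUT0583 ends 65 bases short of the ORF-T (chrXIII:433749-434668) and was up-regulated. It had 55, 49, 51 and 27 reads in WT and 207, 131, 152 and 63 in *rrp6Δ*. The scaled values overlapped, because *rrp6Δ* replicate 4 with 6.03 CPM lay below WT replicates 2 and 3 with 6.16 and 7.55 CPM. The log2 fold change of NUT0583 was 0.98 (SE 0.32, FDR 0.0342, Benjamini-Hochberg, edgeR's quasi-likelihood test), beside 64.7% of NUTs called higher. Its counts were 0.714% to 1.38% of those of *ADH3* in WT and 1.19% to 5.25% in *rrp6Δ*. NUT0583 holds GTAA 2 times, GTAG 1 time and TCTT 5 times, the same counts as CUT791, but over 920 bases against 161. That is 8.70 such tetramers per kilobase, and 99.3% of the 1291 NUTs are as dense or denser (median 18.6). The ranks by density were not matched for transcript length.

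The other transcripts beside *ADH1* and *ADH5* did not pass the test, although some did under other settings. Before *ADH5* lie SUT019 and NUT0045, which overlap each other and ended 528 and 476 bases before the ORF-T, with 4 to 21 and 5 to 22 counts per library and log2 fold changes of 0.24 (SE 0.43) and 0.27 (SE 0.42). Among the SUTs 28.6% were called higher. Across *ADH5* on the opposite strand, NUT0847 had 1 to 7 reads in WT and 7 to 24 in *rrp6Δ*, with a log2 fold change of 1.07 (SE 0.50, FDR 0.128, Benjamini-Hochberg, edgeR's quasi-likelihood test). SRT336 covers nearly the same bases and counts, with a log2 fold change of 1.10 (SE 0.50, FDR 0.118). NUT0847 was called higher with ORF-T-based TMM factors (1.39, FDR 0.0614), also with the block (1.37), with library totals (1.42), without sn/snoRNAs, extended transcripts and NUTs in the scaling (1.21), and without WT replicate 4 (1.45) or *rrp6Δ* replicate 4 (1.31). SRT336 was called under these same settings and in edgeR's exact test (FDR 0.0900). Before *ADH1* no CUT, SUT or NUT was annotated within the window, and SRT560, which ends 101 bases before the ORF-T, had a log2 fold change of -0.72 (SE 0.40, FDR 0.195). SRT560 was called lower with the replicate number as a block (-0.61, FDR 0.0177, same test) and without *rrp6Δ* replicate 2 (-1.04, FDR 0.0888). Of the 4 CUT, SUT and NUT transcripts that the rule places upstream of the 8 genes, 2 were called, both higher, CUT791 and NUT0583. Over the whole classes 81.3% of CUTs, 28.6% of SUTs and 64.7% of NUTs were called higher, so this count does not set the 8 genes apart.

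**Figure D2:**
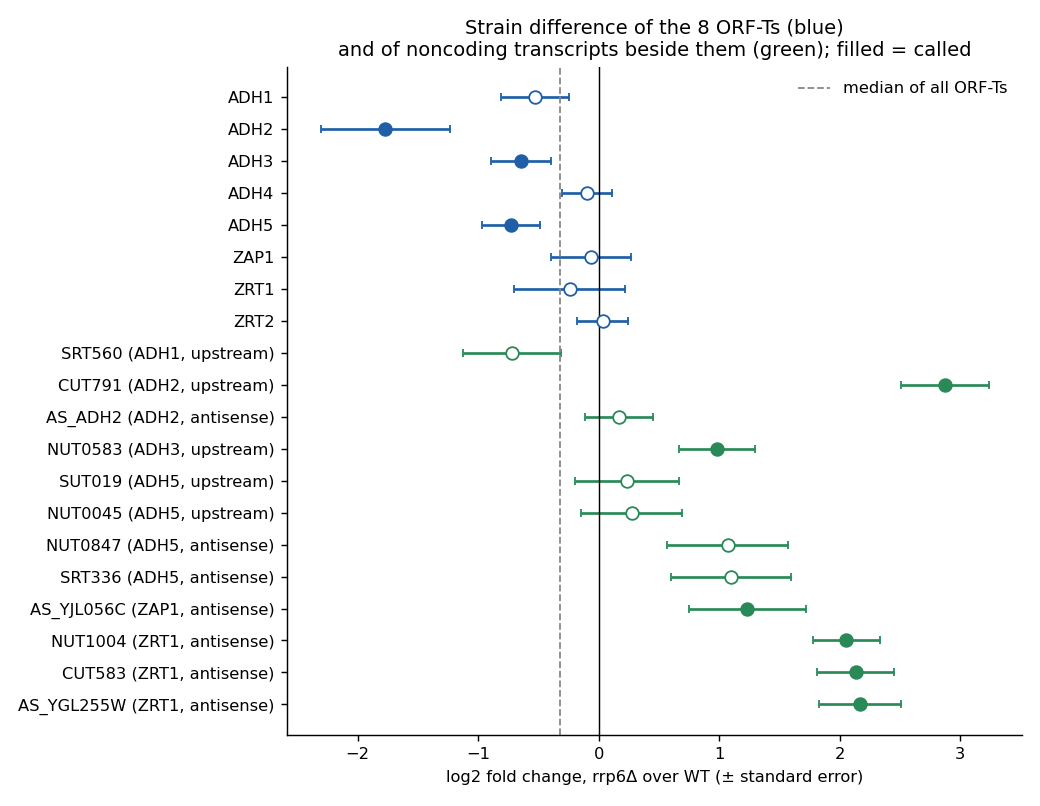
Log2 fold change (*rrp6Δ* over WT) with its standard error for the 8 ORF-Ts (blue) and the noncoding transcripts upstream of them or antisense to them (green). Filled points were called and the dashed line is the ORF-T median of -0.32. *ADH2* lies at -1.77 and CUT791 at 2.87, and the transcripts antisense to *ZRT1* lie between 2.05 and 2.17.

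*ADH1*, the fermentative enzyme, had 2840.1, 2308, 4163 and 2508 CPM in WT and 1539.6, 1969.5, 2284 and 2401 CPM in *rrp6Δ*. Only *rrp6Δ* replicate 4 exceeded a WT library, replicate 2, and WT replicate 3 was the highest of all. Its log2 fold change was -0.53 (SE 0.28, FDR 0.17, Benjamini-Hochberg, edgeR's quasi-likelihood test), or -0.21 relative to the ORF-T median. *ADH4*, the zinc-regulated enzyme, had 94.1, 72.2, 76.7 and 54.7 CPM in WT and 81.8, 68.1, 73.8 and 54.7 in *rrp6Δ*. Each *rrp6Δ* value was close to the WT value of its number, and the log2 fold change of *ADH4* was -0.10 (SE 0.21), or 0.22 relative to the ORF-T median, which is the value it also took with ORF-T-based TMM factors, so its sign depends on the scaling.

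The make-up of the alcohol dehydrogenase mRNA pool does not depend on library scaling. *ADH1* made up 81.1% ± 2.94 of the summed counts per kilobase of *ADH1* to *ADH5* in WT and 83.1% ± 2.53 in *rrp6Δ* (SD, n = 4). *ADH3* made up 14.5% ± 1.43 and 13.4% ± 2.44. *ADH2* held 2.23% ± 2.16 in WT, with single libraries from 0.399% to 5.22%, and 0.917% ± 0.478 in *rrp6Δ*, with libraries from 0.480% to 1.42%. Without WT replicate 2 the WT mean of *ADH2* was 1.23%. *ADH4*, whose transcript is long, held 1.22% ± 0.305 and 1.72% ± 0.581, or 2.06% and 2.88% of the counts without division by length, and *ADH5* 0.987% ± 0.352 and 0.838% ± 0.113. The libraries of the strains overlapped in the share of each of the 5 enzymes, and the highest *ADH2* shares were those of WT replicates 1 and 2, 2.37% and 5.22%.

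None of the 3 genes of the zinc response passed the test. *ZRT1* had 1106, 626, 313 and 145 reads in WT and 1213, 675, 539 and 188 in *rrp6Δ*. Scaled to CPM these are 93.6, 78.7, 46.3 and 20.7 in WT and 74.0, 70.2, 40.7 and 18.0 in *rrp6Δ*. The libraries followed their number and not their strain, with replicate 4 lowest and replicate 1 highest in both, and the highest was 4.52 times the lowest in WT and 4.11 times in *rrp6Δ*. The log2 fold change of *ZRT1* was -0.24 (SE 0.46, FDR 0.701, Benjamini-Hochberg, edgeR's quasi-likelihood test), and within the numbers it was -0.34, -0.17, -0.19 and -0.20. Relative to the ORF-T median it was 0.08, so its sign depends on the scaling.

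*ZRT2* had 149, 140.3, 147 and 87.5 CPM in WT and 140.7, 144, 137 and 114 in *rrp6Δ*. Replicate 4 was the lowest library of both strains, and the other 6 lay close together. Its log2 fold change was 0.03 (SE 0.21), or 0.35 relative to the ORF-T median. *ZAP1* had 48, 36, 72 and 63 reads in WT and 116, 56, 87 and 76 in *rrp6Δ*, the lowest level of the 8 per kilobase. In CPM the *rrp6Δ* libraries of *ZAP1* (5.82 to 7.28) lay inside the WT range (4.06 to 10.7). The *ZAP1* log2 fold change was -0.06 (SE 0.33), or 0.26 relative to the ORF-T median, and within the numbers it was 0.80, 0.36, -0.70 and -0.31, higher in 2 and lower in 2.

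In contrast to the mRNA, transcripts antisense to *ZRT1* rose. AS_YGL255W, which covers the coding bases of *ZRT1* on the other strand (chrVII:20978-22108), had 14, 8, 11 and 5 reads in WT and 111, 42, 67 and 44 in *rrp6Δ*. The lowest *rrp6Δ* library stood well above the highest WT library, but how many of all ASTs showed such a gap was not computed. Its log2 fold change was 2.17 (SE 0.34, FDR 8.30e-04 by edgeR's quasi-likelihood test, Benjamini-Hochberg, p = 0.0286 in the exact permutation test). The authors drew up the antisense class from rows that changed significantly between these same strains, in either direction, and 55.4% of its members were called higher here, so its rise is not independent evidence. The counts of AS_YGL255W were 1.27% to 3.51% of those of *ZRT1* in WT and 6.22% to 23.4% in *rrp6Δ*, without overlap.

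NUT1004 and CUT583 lie on the same strand as AS_YGL255W and share bases with it, so the 3 are not separate measurements. NUT1004 (chrVII:20761-23537) spans all of *ZRT1* and runs on past its annotated start, across the bases of the exact Zap1-type site printed above. It had 59, 72, 30 and 34 reads in WT and 501, 235, 256 and 238 in *rrp6Δ*, which is 2.05 on the log2 scale (SE 0.28). CUT583 (chrVII:21885-23349) reaches 323 bases into the 3′ end of the ORF-T and had 19 to 64 reads in WT and 196 to 433 in *rrp6Δ*, which is 2.13 on the log2 scale (SE 0.32). NUT1004 and CUT583 were both called higher, beside 64.7% of all NUTs and 81.3% of all CUTs, so such a rise is what most of their classes showed. Neither overlapped between the strains, but the share of all NUTs or CUTs without overlap was not computed, so this has no baseline. Counts of NUT1004 were 5.33% to 23.4% of those of *ZRT1* in WT and 34.8% to 127% in *rrp6Δ*, the highest in *rrp6Δ* replicate 4. This is no ratio over the same bases, since NUT1004 is 2776 bases long and holds all of CUT583, most of which lies past the 3′ end of *ZRT1*. Over the coding bases alone, AS_YGL255W stayed below *ZRT1* in every library, at 23.4% in *rrp6Δ* replicate 4.

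**Figure D3:**
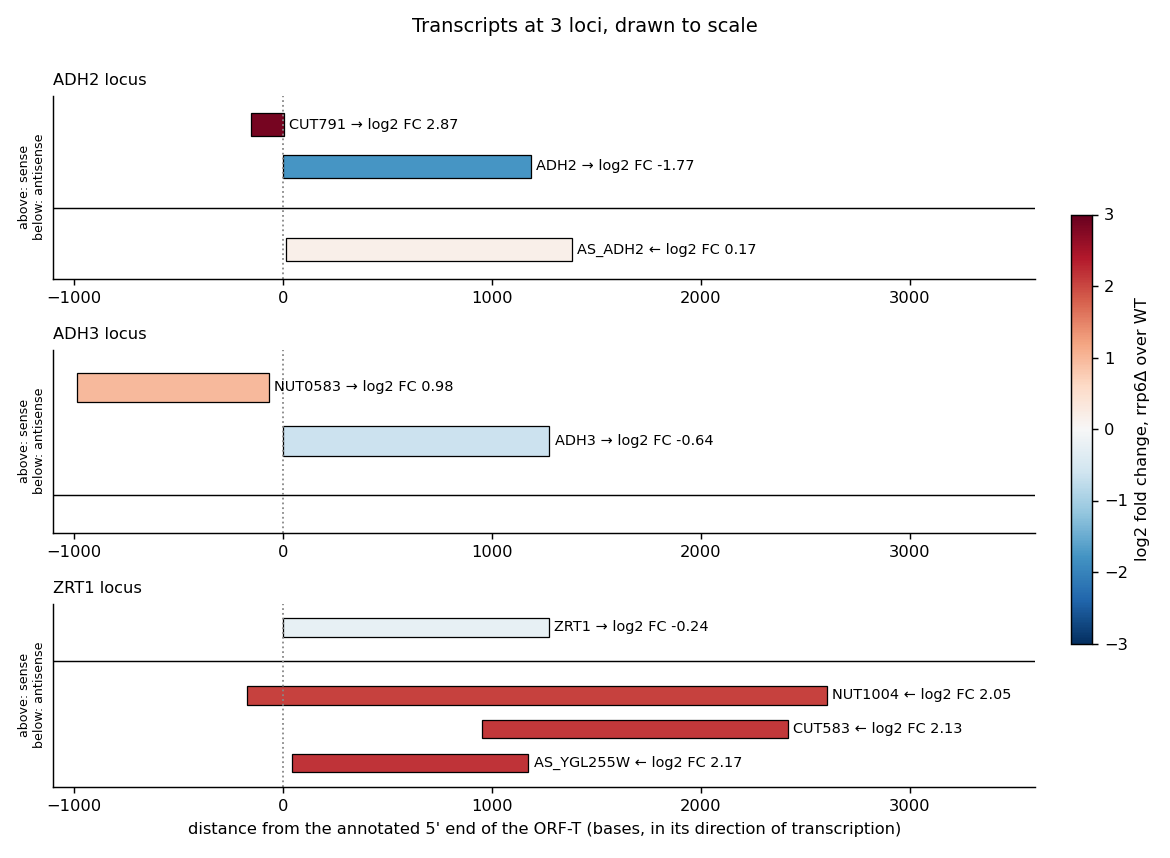
Transcripts at the *ADH2*, *ADH3* and *ZRT1* loci, to scale, by distance in bases from the annotated 5′ end of the ORF-T, with the sense strand above the line and the antisense strand below. Colour gives the log2 fold change (*rrp6Δ* over WT), which is 2.87 for CUT791 above *ADH2*, 0.98 for NUT0583 above *ADH3* and 2.05 to 2.17 for the 3 overlapping transcripts antisense to *ZRT1*.

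Antisense to *ZAP1*, AS_YJL056C had 17, 7, 4 and 1 reads in WT and 23, 19, 24 and 27 in *rrp6Δ*. In CPM, WT replicate 1 (1.44) lay above *rrp6Δ* replicate 1 (1.40), and all other *rrp6Δ* libraries lay above WT. The log2 fold change was 1.23 (SE 0.49, FDR 0.0753, Benjamini-Hochberg, edgeR's quasi-likelihood test). AS_YJL056C belongs to the same antisense class, drawn up from rows that changed between these strains. Of this class 55.4% were called higher, so the call of AS_YJL056C is not independent evidence. At these low counts the call was kept only without WT replicate 1 (1.85) or *rrp6Δ* replicate 1 (1.44), and it was lost without WT replicate 2 (1.26), 3 (1.13) or 4 (1.00, FDR 0.108) and without *rrp6Δ* replicate 2 (1.22), 3 (1.27) or 4 (1.12). As a share of *ZAP1* counts it reached from 1.59% to 35.4% in WT and from 19.8% to 35.5% in *rrp6Δ*, which overlap. No noncoding transcript of these classes was annotated upstream of *ZAP1*, *ZRT1*, *ZRT2* or *ADH4*, and none across *ZRT2* or *ADH4*.

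**Figure D4:**
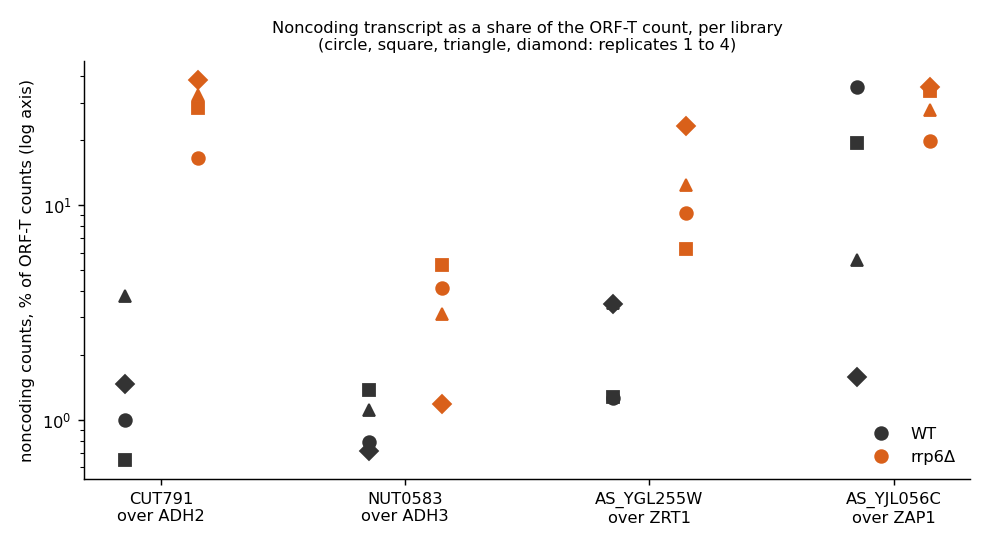
Counts of 4 noncoding transcripts as a percentage of the counts of the ORF-T they lie beside or across, per library (log axis, WT dark, *rrp6Δ* orange). The strains are apart for CUT791 over *ADH2* (0.647% to 3.76% against 16.5% to 38.3%) and AS_YGL255W over *ZRT1*, and overlap for NUT0583 over *ADH3* and AS_YJL056C over *ZAP1*.

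Other zinc genes, 20 of them listed for transport, storage or regulation by zinc, mostly did not pass the test. None was called higher by edgeR or by DESeq2, 0 were higher at an unadjusted p under 0.05 in edgeR, and 1 was called lower, where 14.3% of all ORF-Ts were. This was *PIS1*, the phosphatidylinositol synthase gene that zinc is known to regulate, with 181 to 348 CPM in WT and 117 to 176 in *rrp6Δ* and a log2 fold change of -0.72 (SE 0.24, FDR 0.0396, Benjamini-Hochberg, edgeR's quasi-likelihood test). With the replicate number as a block 2 were lower, *PIS1* and the peroxiredoxin gene *TSA1* (-0.93, FDR 8.49e-04, same test), where 19.4% of all ORF-Ts were lower with the block. The median of the 20 was -0.23 on the log2 scale, beside -0.32 for all ORF-Ts. The call of *PIS1* was lost with ORF-T-based TMM factors, with library totals, with at least 10 counts in every library and without sn/snoRNAs, extended transcripts and NUTs in the scaling, which each left 0 lower. It was also lost without WT replicate 3 or *rrp6Δ* replicate 1, which left 0 lower, and without WT replicate 2 or *rrp6Δ* replicate 4 the count was 2.

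Of 14 further genes of ethanol and acetaldehyde metabolism, 2 were called lower and 0 higher, with 3 lower and 0 higher at an unadjusted p under 0.05 in edgeR, and 2 lower and 0 higher in DESeq2. The 2 lower are 14.3% of the list, the same as the 14.3% of all ORF-Ts called lower. *ALD6*, the main cytosolic acetaldehyde dehydrogenase gene, had a log2 fold change of -0.62 (SE 0.26, FDR 0.0963) and *ALD2*, a stress-induced relative, one of -0.72 (SE 0.24, FDR 0.0406, Benjamini-Hochberg, edgeR's quasi-likelihood test). With the replicate number as a block 4 were lower, *ALD2*, *ALD6*, the mitochondrial *ALD4* (-0.74) and the butanediol dehydrogenase gene *BDH1* (-0.71), beside the 19.4% of all ORF-Ts. The median was -0.24. The count was 0 without WT replicate 4 or *rrp6Δ* replicate 3 and 1 without WT replicate 1 or *rrp6Δ* replicate 1.

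Several genes that, like *ADH2*, are repressed by glucose were also lower. Of 11 listed, 4 were called lower and 0 higher in edgeR, where 14.3% of all ORF-Ts were lower and 2.09% higher, and likewise in DESeq2, and the edgeR counts at an unadjusted p under 0.05 were also 4 and 0. Their median log2 fold change was -0.74, and all 11 lay below the ORF-T median. Among the 11, *ACS1* (-0.62, SE 0.62) rests on a row of 164 bases with 1 to 16 reads per library. *ADR1*, which encodes an activator of *ADH2*, had 21.5, 33.8, 27.2 and 138 CPM in WT and 19.2, 18.3, 13.1 and 33.2 in *rrp6Δ*, which is -1.39 on the log2 scale (SE 0.53, FDR 0.0648, Benjamini-Hochberg, edgeR's quasi-likelihood test). For *ADR1*, WT replicate 4 stood high, whereas for *ADH2* it was WT replicates 1 and 2. The malate synthase gene *MLS1* (-1.05), the peroxisomal oxidase gene *POX1* (-1.33) and the lactate transporter gene *JEN1* (-1.04) were the others called. With the replicate number as a block 6 were lower, the additional ones being the gluconeogenic *FBP1* (-0.81, FDR 0.00148) and the acetate transporter gene *ADY2* (-0.87, FDR 0.00508, Benjamini-Hochberg, edgeR's quasi-likelihood test), where 19.4% of all ORF-Ts were lower. In 9 of the 11 the *rrp6Δ* library was lower within all 4 numbers, as in 5 of the 8 transcripts, 7 of the 14 ethanol genes and 5 of the 20 zinc genes. This share was not computed over all ORF-Ts, so the count has no baseline. All 4 *rrp6Δ* libraries lay below all 4 WT libraries in 0 of the 11, against 13.8% of all ORF-Ts.

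The calls of this list depended on scaling and on single libraries, with 0 lower under ORF-T-based TMM factors, but 4 lower when these factors were used with the block (2.59% and 4.68% of all ORF-Ts). The number called lower was 2 without WT replicate 1 or 4 or *rrp6Δ* replicate 1, and 1 without WT replicate 2 or *rrp6Δ* replicate 3. In 5 of the 11, WT replicates 1 and 2 both lay above WT replicates 3 and 4, as for *ADH2*. The same held for 5 of the 20 zinc genes and 3 of the 14 ethanol genes, and the share over all ORF-Ts was not computed. After removal of the strain means, the Pearson correlation of log2(CPM + 1) with *ADH2* over the 8 libraries ran from -0.82 for the acetyl-CoA synthetase gene *ACS1* to 0.90 for *MLS1*. The *ACS1* value rests on a row of 164 bases with 1 to 16 reads per library, and the next lowest was -0.33 for *ADR1*. Over 8 libraries these correlations are a description only.

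**Figure D5:**
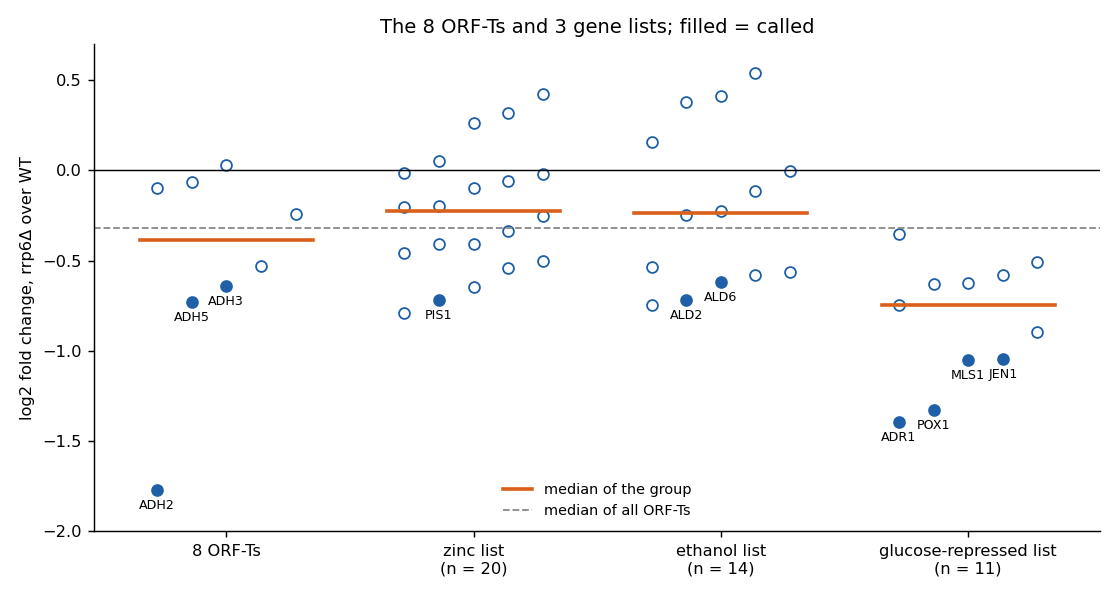
Log2 fold change (*rrp6Δ* over WT) of the 8 ORF-Ts and of 20 zinc, 14 ethanol and 11 glucose-repressed genes, 1 point per gene, filled where called, with the median of each group (orange) and of all ORF-Ts (dashed, -0.32). The glucose-repressed genes have a median of -0.74 and none lies above the dashed line, while the zinc and ethanol genes scatter on both sides of it with medians of -0.23 and -0.24.

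The library-to-library variation grouped the 8 transcripts in another way than the strain difference did. After removal of the strain means, *ZRT1*, *ZRT2* and *ADH4* varied together over the 8 libraries, with Pearson correlations of log2(CPM + 1) of 0.85 to 0.86 between each pair, while *ZAP1* ran from -0.64 to -0.43 against them. *ADH5* was opposite to *ADH4* (-0.96) and to *ZRT1* (-0.91), and *ADH2* was opposite to *ZAP1* (-0.89). All these points share the same 8 libraries and their scaling, so the values are a description with no test. Among 4455 other ORF-Ts with a mean of at least 10 CPM, the patterns most like *ADH4* were those of *UTP9* (0.99) and *ARO8* (0.98), the most like *ZRT1* those of *RAI1* (0.98) and *LYS9* (0.98), and the most like *ZRT2* those of *CSE1* (0.99) and *UTP11* (0.99). The closest to *ADH1* were *YSF3* (0.95) and *ASC1* (0.95), to *ADH2* *RTG1* (0.97) and *PDH1* (0.96), to *ADH3* *EST3* (0.98) and *TEF2* (0.98), and to *ADH5* *RPS7B* (0.97) and *RPL34A* (0.96). *ZAP1* had the loosest match, with *BUL2* (0.90) and *NAB2* (0.90).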

How the data were processed

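According to the methods, strand-specific single reads of rRNA-depleted total RNA were made on a SOLiD instrument. Reads were mapped to sacCer3 with bfast and counted on annotated transcripts with bamutils of NGSUtils, and edgeR and sacCer3 are also named in the submitters' processing notes. A mapping without rRNA and tRNA reads and a mapping with them are described, and which one gave the table is not stated. The authors deposited a raw count per transcript and library, which was analysed here. They also deposited a normalized signal, the count divided by a constant per library, and the log2 fold change, p-value and FDR of their own comparison, none of which was used. The table held 0 columns of other samples.

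Counts were analysed with edgeR 4.0.16 in R 4.3.3 (glmQLFit and glmQLFTest on all 10054 transcripts, TMM over all transcripts, no filter, no covariate, Benjamini-Hochberg adjustment). TMM factors were 0.735 to 1.37, and the common biological coefficient of variation was 0.302. Standard errors are the size of the log2 fold change over the square root of F. Exact permutation tests were two-sided over the 70 arrangements of 4 libraries against 4. Sequences, motifs and gene coordinates are from RefSeq R64, and Python 3.11.15 with pandas 2.3.3 and scipy 1.17.1 was used. The procedure was tested on simulated data.

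After removal of the strain means, log2 values correlated between same-numbered libraries of the strains at 0.551 to 0.694 and between others at -0.469 to 0.004. The numbers come from the sample titles, and a fit with them as a block was run beside the one without.

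The 8 transcripts and the gene lists were chosen with earlier results of these data known, the lists from general knowledge and not by how their genes moved. All 8 and their context are named, with *RRP6*, every called gene of each list, and the 2 ORF-Ts most like each of the 8. Of the listed strain markers, 2 genes of the other mating type and 2 deleted genes were not found under their systematic names among the annotated transcripts, so they have no values here. The values of *TSA1*, *ALD4*, *BDH1*, *FBP1*, *ADY2*, *BAR1* and *ACS1* were seen before these were named.

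The alternatives were DESeq2 1.42.0 and edgeR's exact test, filters by filterByExpr or of 10 counts in each library, TMM on ORF-Ts alone, no TMM, scaling without sn/snoRNAs, extended transcripts and NUTs, an FDR of 0.05, the replicate block, and fits with a library removed. The block combined with TMM on ORF-Ts alone, and the SRTs as context, were added after seeing the data.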

Additional observations from a re-analysis of the deposited data

Results flagged for a closer look

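In groups of 4 libraries, a single library standing far from the other 3 was looked for in 40 groups, of which chance flags about 1 in 20, and 3 were found. For *ADH5*, *rrp6Δ* replicate 4 had 28.5 CPM, where the other *rrp6Δ* libraries had 17.5 to 19.2. For *ZRT2*, WT replicate 4 had 87.5 CPM, below the 140.3 to 149 of the other WT libraries. For NUT1004, antisense to *ZRT1*, WT replicate 2 had 9.05 CPM against 4.44 to 4.99 in the others. The gap to the nearest library was 0.840, 0.865 and 0.881 of the range of its group.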

How the results depend on the processing

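The direction and call of *ADH1*, and the calls of CUT791, NUT0583, NUT1004, CUT583 and AS_YGL255W, were kept under each alternative that could be run, although CUT791 and AS_YGL255W could not be tested when 10 counts were required in every library. The replicate block called the same number of the 8 transcripts, 3 lower, and the calls it added among the context and listed genes (SRT560, *TSA1*, *ALD4*, *BDH1*, *FBP1*, *ADY2*, *BAR1*) are given beside those results. *ADH1* with the block (-0.51, FDR 0.0555, edgeR's quasi-likelihood test) met the FDR of 0.1 but changed less than 1.5-fold. The same held for *ZRT2* (0.37, FDR 0.0441) and *ADH5* (-0.40, FDR 0.0360) with the block and ORF-T-based TMM factors. With ORF-T-based TMM factors, the log2 fold changes were -0.34 (*ADH3*) and -0.42 (*ADH5*), not called, and 0.22 (*ADH4*), 0.25 (*ZAP1*) and 0.088 (*ZRT1*). With library totals and no TMM they were -0.30 (*ADH3*), -0.38 (*ADH5*), 0.28 (*ADH4*), 0.33 (*ZAP1*) and 0.17 (*ZRT1*). With at least 10 counts in every library they were -1.54 (*ADH2*), -0.43 (*ADH3*) and -0.51 (*ADH5*), not called, and 0.13 (*ADH4*) and 0.16 (*ZAP1*). Without sn/snoRNAs, extended transcripts and NUTs in the totals they were -0.51 (*ADH3*, not called), 0.046 (*ADH4*) and 0.063 (*ZAP1*). With the replicate block and ORF-T-based TMM factors, a setting chosen after seeing the data, they were -0.36 (*ADH3*), -0.40 (*ADH5*), 0.23 (*ADH4*), 0.34 (*ZAP1*) and 0.093 (*ZRT1*), and with the block alone *ZAP1* was at 0.025. *ADH3* (-0.64) was not called at an FDR of 0.05. The cause of these changes was not tested.

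Leaving out each library in turn gave log2 fold changes of -2.08 to -1.08 for *ADH2*, -0.81 to -0.51 for *ADH3*, -0.87 to -0.51 for *ADH5*, -0.15 to 0.083 for *ADH4*, -0.24 to 0.20 for *ZAP1*, -0.45 to 0.13 for *ZRT1* and -0.047 to 0.16 for *ZRT2*. The number of the 8 called lower was 1 with ORF-T-based TMM factors (also with the block) or with library totals, 0 with at least 10 counts in every library, and 1 to 3 with a library left out.

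The zinc list had 1 gene higher with ORF-T-based TMM factors or with library totals and 2 with the block and ORF-T factors. It had 2 lower with the block, 0 to 2 with a library left out, and 0 with ORF-T-based TMM factors, library totals, at least 10 counts, or without sn/snoRNAs, extended transcripts and NUTs. The ethanol list had 2 higher with the block and ORF-T factors and 0 to 1 with a library left out. It had 4 lower with the block, 1 at an FDR of 0.05 or with filterByExpr, 0 to 3 with a library left out, and 0 with ORF-T-based TMM factors (also with the block), library totals, at least 10 counts, or without sn/snoRNAs, extended transcripts and NUTs. The glucose-repressed list had 6 lower with the block, 4 with the block and ORF-T factors, 1 at an FDR of 0.05 or without sn/snoRNAs, extended transcripts and NUTs, 0 with ORF-T-based TMM factors, library totals or at least 10 counts, and 1 to 4 with a library left out. Low counts limit *ZAP1* and the noncoding transcripts, and 1 deletion strain limits what the genotype can be said to do.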
